A study of Homo sapiens with 12 samples.

Results

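SERTAD2 tile 22 is a short stretch of the human protein SERTAD2 that the files list among their silencer tiles, as tile 22 of ENSG00000179833. Its members were all ordered pairs of protein domains that hold this tile in the first or the second position. They numbered 199 of the 9983 pairs with reads: 99 pairs with the tile first, 99 with the tile second, and the tile paired with itself. Of these, 42 pairs had a control as the partner and 156 had one of the 78 other domains. The tile was chosen by its bound share in the activation screen, where it stood apart from the other silencer tiles. Every activation value below is therefore a description with no test.

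SERTAD2, also called TRIP-Br2, belongs to a family of small nuclear proteins with a SERTA motif. These proteins are known as cofactors of E2F and DP transcription factors, and their acidic C-terminal region activates transcription when it is tethered to DNA. Activating regions of this kind recruit coactivators to a promoter, whereas silencing domains such as KRAB or the HP1 chromoshadow domain recruit corepressors and chromatin modifiers. The SERTAD2 gene lies on chromosome 2, 64631621 to 64653913, in RefSeq's GRCh38.p14 table. The files give only the Ensembl identifier, and which residues tile 22 spans is not stated in the sources.

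The pairs were fused to rTetR, a DNA-binding protein that holds on to its sites only with doxycycline, and delivered by lentivirus to K562, an established human leukaemia cell line. All groups were selected with blasticidin for 7 days and given 1000 ng/mL doxycycline from day 8. The activation screen used the line K562 + pDY032 with 2 days of doxycycline. The repression screen used K562 + pJT039 with 5 days of the drug. The memory screen, which the submitters marked as unused, used that line too, and its cells went 5 days without the drug after 5 days on it. Per screen there were 2 replicates, infected separately, and each gave 1 library of bound and 1 of unbound cells. Bound is taken here as the fraction with the reporter on; the labels do not tie these words to each other. Controls were 11 tiles of dystrophin (DMD) and 10 random sequences.

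The 12 libraries held 612999 to 55121999 read pairs, with the fewest in the activation unbound library of replicate 2. Every library but that one had reads of all 199 members. The tile's median count per member ranged from 61 in that library to 15924 in the activation bound library of replicate 1. A member was compared if, in each replicate, 1 fraction held 5 reads or more and both together 50 or more, which 194 of the 199 did in the activation screen, 194 in repression and 195 in memory. The pairs left out, 4 or 5 per screen, had ATF1, HXA13, ZN597, CDYL2, MPP8, YAF2 or a silencer tile as the partner. The reads carry no stated molecular identifiers, so errors cover counting and the spread between the replicates only.

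Next to controls, the tile was far more abundant in the bound than in the unbound fraction of the activation screen. For each read of a pair of 2 different controls, there were 1.39 and 1.44 reads of the tile with a control in the bound libraries of replicates 1 and 2. The unbound libraries held 0.147 and 0.149. The bound and unbound values did not overlap, and both replicates gave nearly the same contrast. Summed over all control partners, the bound share was 11.4-fold that of control pairs (log2 3.51, standard error 0.15). No control domain reached this level. The highest of the 21 controls was DMD tile 31, at 2.06, and their median was 0.15.

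A score per replicate gave the same picture. It is the log2 ratio of bound to unbound reads, with counts under 5 set to 5, relative to the median of control pairs. The mean score over control partners was 3.45 and 3.37 in the replicates (3.41 ± 0.06, SD, n = 2). With the tile first it was 3.43 and 3.50, and with the tile second 3.47 and 3.24. The positions differed by 0.11 on average, and their replicate values overlapped.

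Single control partners differed widely. With the tile first, scores ran from -0.01 to 5.36 with a median of 3.86, and with the tile second from -0.35 to 4.97 with a median of 3.59. The highest partner in both positions was random control 411, which alone with controls stood at -0.10. In the order tile first it had 163484 bound and 5678 unbound reads in replicate 1, and 104557 and 95 in replicate 2. The lowest was random control 89, in both positions, followed by DMD tile 297 at 0.02 over both orders. The pair tile + random control 89 had 12328 bound and 18646 unbound reads in replicate 1, and 8631 and 309 in replicate 2. Its scores were -0.12 and 0.10, near those of control pairs in both replicates.

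These controls were set beside the 4 domains nearest to the tile, named again at the end. Random control 89 scored -0.42 with the KRAB domain of ZN473 and -0.23 with NCOA2, but 2.37 with FOXO3 and 1.93 with MYBA. DMD tile 297 scored -0.07 with ZN473 and 0.76 with NCOA2, against 2.74 with FOXO3 and 3.90 with MYBA. Both were thus low with the tile, ZN473 and NCOA2 and higher with FOXO3 and MYBA. DMD tile 251 and random control 124, at 4.92 and 4.93 with the tile, were near its highest control partner.

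Over all partners the tile's activation scores covered most of the range of the screen. The median of its 194 pairs was 2.99, with values from -2.30 to 5.96, against a median of -0.35 for all other pairs and of 0.00 for control pairs. In 139 pairs both replicates were above 0 and in 45 both were below. The tile was in 13 of the 100 highest pairs of the screen and in none of the 100 lowest, while it made up 2.14% of the pairs. Partners kept similar values in both orders. Across 73 partners, which share libraries and the tile, scores with the tile first and second correlated with r = 0.92, and the replicates with r = 0.98.

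SH3 and WW domains, small modules that bind proline-rich peptides, were the partner list with the highest activation. All 18 of these pairs were above 0 in both replicates. The 9 partners had a median of 4.32 (range 3.71 to 5.47), compared with 0.15 for the same partners beside controls. The tile's own pairs with controls had a median of 3.68 and ran from -0.35 to 5.36. The SH3 domain of ANM2, an arginine methyltransferase, gave the highest value of any partner, 5.47, with 5.55 for tile first and 5.39 for tile second. Both replicates stood at 5.47, although the unbound library of replicate 2 held only 18 and 31 reads of the pairs. The SH3 domain of the kinase BTK gave 5.12 and that of ABL1, also a kinase, 4.45. The WW domains of WBP4, APBB1, ITCH, WWP2 and KIBRA, the last also in the activator list, lay between 3.71 and 4.43.

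Pairs with subunits of SWI/SNF remodelling complexes had a median of 3.82, beside 3.68 for the pairs with controls. SMCA2, an ATPase, gave 4.10, SMRC2 3.82 and DPF1 2.97, and all 6 pairs were positive in both replicates. Variant KRAB zinc finger proteins and NIZP1 domains spread more widely, around a median of 2.46. The KRAB domains of ZN597 and ZN473, which had activation scores of 1.57 and 3.70 next to controls, reached 4.54 and 4.43. ZN777, through its DUF3669 domain, gave -0.79, and both its orders were below 0.

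MYBA and FOXO3, both strong activators next to controls, scored lower with the tile. The 9 domains in that list had a median of 3.70 with the tile. MYBA scored 4.43 next to controls and 2.81 with the tile, FOXO3 3.87 and 3.39, and NCOA2 3.92 and 3.78. Both replicates were lower with the tile for MYBA and FOXO3, but for NCOA2 the change was 0.07 in replicate 1 and -0.37 in replicate 2. CRTC2, a CREB coactivator, instead went from 1.25 next to controls to 4.48, while NOTC2, a Notch receptor, went from 0.75 to 3.70. The tile's pairs with controls had a median of 3.68. The bZIP DNA-binding domains of CREM and ATF1 were the lowest of the list, with 1.05 and 2.12. Over 152 pairs with a domain that is no control, the median score lay 1.47 below the sum of the scores that both domains had with controls.

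With strong silencing domains the activation was absent. With the 3 KRAB variants, which recruit the corepressor TRIM28, all 6 pairs were below 0 in both replicates. They ranged from -1.93 to -1.70 by partner, lower than the variants' own median of -1.32 beside controls. For KRAB variant P21506 with the tile first there were 2164 bound and 10480 unbound reads in replicate 1, and 1731 and 166 in replicate 2. Its scores were -1.80 and -1.33. SUMO3, a small ubiquitin-like modifier, was the lowest partner at -2.02, with -1.84 and -2.20 in the replicates. CBX1, an HP1 protein present with its chromoshadow domain, gave -1.64, and the cytochrome b5-like domain of HERC2, a ubiquitin ligase, -1.27. CHD3, a helicase of the NuRD complex whose DUF1087 domain was present, departed from these partners at 1.91. Next to controls in the repression screen it stood at only -0.24.

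The other silencer tiles covered nearly the whole range of the tile's activation scores. The 20 tiles measured in both orders had a median of 0.27 and ran from -1.77 to 5.38. Of 42 pairs, 18 were above 0 in both replicates and 21 below. Tile 13 of ENSG00000205571 gave 5.38 (4.80 and 5.96 by order), although the unbound library of replicate 2 held only 4 reads of the tile-second pair, under the floor. A pair of further silencer tiles reached 4.97 and 4.55. Tile 13 of ENSG00000025156 gave -1.77 in both orders, tile 11 of ENSG00000163602 -1.32 and tile 12 of ENSG00000155090 -1.09. Tile 18 of ENSG00000100307 gave -0.57. In the partner list headed Polycomb and SAM, PCGF2 stood at -0.85 and YAF2, measured with the tile first only, at -0.90, but SSX2 at 1.74.

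A few partners had different values by order. The HMG box of TOX gave -0.40 with the tile first and 2.53 with the tile second, a difference of -2.93 that was -3.20 and -2.65 in the replicates. The pair TOX + tile had 5341 bound and 1171 unbound reads in replicate 1, and the pair tile + TOX had 2940 and 5927. Tile 62 of ENSG00000102098 differed by -2.10 in the same direction (-0.29 and 1.81), and another silencer tile by -2.18. KMT2B (2.49 and 0.47) and SSX2 (2.73 and 0.76) went the other way. The KMT2B and SSX2 pairs had as few as 6 and 2 reads in a library. Differences of this kind were not tested.

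In the repression screen, the tile lowered the bound share next to controls, so the same tile stood above controls in one reporter line and below them in the other. For each read of a pair of 2 different controls, the bound libraries held 0.149 and 0.145 reads of the tile with controls. The unbound libraries held 0.342 and 0.396. Pairs of a control with itself are left out of this ratio. With them, control pairs in replicate 1 held 3429061 bound and 460920 unbound reads, in place of 1808957 and 146203, which made the contrast smaller. Bound was below unbound in both replicates, without overlap. The bound share fell 2.60-fold (log2 -1.38, standard error 0.14, edgeR adjusted p = 9.8e-10). Of the 79 domains that are no control, 73.4% were called lower and 5.06% higher in this test, and the tile ranked at 36 from the lowest. Per library total, the coefficient was 0.47, and with scaling over all members 0.60, both called higher by edgeR, so its sign is relative to the chosen zero. The median of the controls was then 1.85 and 1.98, and under each of these scalings the tile lay 1.38 below it, with all 21 controls above the tile. The closest control was DMD tile 31, at -1.31.

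The mean score over control partners was -1.18 and -1.56 (-1.37 ± 0.27, SD, n = 2). With the tile first it was -1.33 and -1.64, and with the tile second -1.02 and -1.49. The difference, -0.23 (95% interval -0.66 to 0.19; limma adjusted p = 0.56), was not called. No domain was called for position in this screen (0% of 78), so the interval is the more useful statement. Random control 89 was again the weakest partner, at 0.26 over both orders. DMD tile 251 stood at -0.59 and DMD tile 297 at -0.70, and the lowest were random control 205 (-2.47) and random control 21 (-2.34).

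Most of the tile's pairs lay below control pairs in repression. edgeR called 164 of 194 lower, against 57.1% of all 9062 pairs, and 0 higher, against 0.497%. With a control as the partner, 35 of 42 were called lower, the share beside which the counts by partner list below are to be read. At an unadjusted p of 0.05 it called 168 lower and 0 higher, and DESeq2 called 167 and 0. The tile's pairs were deeper than most, with a median of 2099 reads per member in the bound library of replicate 1 against 776 over all members, and the part of depth in the count was not tested. Their median score, -2.03, was close to the -1.97 of all other pairs. The tile was in 5 of the 500 lowest pairs (1.0%) and in none of the 500 highest, while it made up 2.14% of the pairs. Under scaling by library totals 57 pairs were called lower, and 54 under scaling over all members.

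The lowest repression scores of the tile were those with silencing partners. Pairs with the KRAB variants had a median of -4.65, next to -4.84 for the variants with controls, and all 6 were called lower. KRAB variant P21506 with the tile first had 987 bound and 1454 unbound reads in replicate 1 and 273 and 4187 in replicate 2, for scores of -4.33 and -5.45. MPP8, a chromodomain protein of the HUSH silencing complex, gave the lowest value, -5.16, but 1 library held only 3 reads of the pair with the tile second. CDYL2, another chromodomain protein, gave -4.71, also with 3 reads in 1 library, and tile 12 of ENSG00000155090 gave -4.73. All 10 pairs of the HP1, chromodomain and SUMO list were called lower, with a median of -4.26. Of 42 pairs with silencer tiles, 37 were called lower, near the 35 of 42 with controls.

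SH3 and WW partners had lower values with the tile than next to controls. Next to controls, edgeR called 4 of the 9 lower: BIN1 (log2 -0.82), KIBRA (-0.73), WWP2 (-0.66) and APBB1 (-0.41). All 9 SH3 and WW partners had scores below 0, with a median of -1.64 against -0.08 next to controls. Of their 18 pairs 16 were called, near the share of the tile's pairs with controls (35 of 42). The median of -1.64 was close to the -1.45 of the tile's own pairs with controls. Of the activator list 13 of 17 pairs were called lower, and MYBA, at -2.67, was the lowest of them. SWI/SNF subunits gave 4 calls in 6 pairs. The highest partners were a silencer tile at 0.14, DPF1 at -0.38, tile 13 of ENSG00000205571 at -0.39, BTK at -0.40 and DPY30, a subunit of histone methyltransferase complexes, at -0.45. For the last 4 of these, replicate 1 was above 0 and replicate 2 below. The silencer tile at 0.14 was also near 0 in activation (-0.04) and in memory (0.08), and the smallest of its activation counts was 79 reads.

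Besides CHD3, whose values come next to its change, 4 partners had the widest differences by order in repression, which were not tested. The bZIP domain of JDP2 gave -2.56 with the tile first and 0.33 with the tile second, with as few as 12 reads in a library. SSX2 gave -2.71 and -0.73, but the replicates disagreed on which order was lower. ZN597 gave -2.37 and -0.49, with as few as 14 reads. A silencer tile gave -3.90 and -2.04 with at least 1129 reads in every library, and it was lower with the tile first in both replicates.

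Replacing a control by tile 22 next to the same partner changed the repression score of 39 partners. This change is the mean score of both orders with the tile minus the partner's median score with controls. It includes the tile's own effect, whose mean score over control partners was -1.37, so a call alone does not show an effect on the partner. limma called 37 of 74 partners lower and 2 higher, where 38.9% and 6.56% of 5042 combinations of other domains and partners were called. The median change was -1.03, against -0.61 over all combinations. Without replicate 2 of the repression screen the 37 became 19, and the 2 became 0, and without replicate 1 the 2 became 1. Among SH3 and WW partners 8 of 9 were lower, among KRAB-like zinc finger proteins 4 of 5, among activators 4 of 8 and among silencer tiles 7 of 20. In the HP1, chromodomain and SUMO list 3 of 5 were lower, which besides CHD3 were MPP8 (from -4.04 to -5.16) and HERC2 (from -3.56 to -4.56). CDYL2, a chromodomain protein kept outside that list, was not called (from -4.37 to -4.71). Of SWI/SNF subunits 2 of 3 were lower, and of the domains in no other list 10 of 19. No KRAB variant and no partner in the Polycomb and SAM list, 3 each, was called.

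The largest change was next to CHD3, which stood at -0.24 with controls and at -3.08 with the tile (change -2.84, standard error 0.26, limma adjusted p = 0.00046). Its mean scores were -2.13 for tile first and -4.04 for tile second, but the orders differed by 0.04 in replicate 1 and by 3.76 in replicate 2, so this difference rests on replicate 2 alone. MTA3, another NuRD subunit, present with its GATA zinc finger, went from -0.07 to -2.61 (change -2.55, standard error 0.24). The tile + MTA3 pair had 3646 bound and 1615 unbound reads in replicate 1, and 1577 and 3784 in replicate 2, so both replicates rested on ample reads. A silencer tile changed by -2.45, the PHD finger of PYGO1, a Wnt cofactor, by -2.44 and NIZP1 C2HR by -2.32. All 5 kept their calls without either replicate. The 2 partners called higher were silencer tiles with low scores of their own, from -3.53 to -2.61 and from -3.13 to -2.30. Both lost their calls without either replicate.

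Pairs were also set against the sum of both domains' own repression scores with controls. limma called 32 of 152 pairs above the sum and 6 below it, where 23.2% and 6.24% of all 5577 pairs without a control were called. Both shares are near that background. The median departure of the tile's pairs was 0.42, toward weaker repression. The 6 pairs below the sum were CHD3 + tile, both orders with MTA3, PYGO1 + tile, tile + NIZP1 C2HR and a silencer tile with tile 22 first. They departed by -2.10, -1.28 and -1.19 (the orders with MTA3), -1.24, -1.16 and -1.78. Without replicate 2 the 32 became 2, and the 6 became 1 without either replicate. With the stronger of both effects as the expectation, 2 pairs were above it.

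After doxycycline had been removed for 5 days, the tile's effect next to controls did not pass the test. Per read of a pair of 2 different controls, the bound libraries held 0.215 and 0.20 reads and the unbound libraries 0.237 and 0.220. By this ratio, which leaves out pairs of a control with itself, the fractions were nearly equal. With those pairs included, control pairs in replicate 1 held 1749396 bound and 1634740 unbound reads, in place of 957726 and 1510554. The tile's bound ratio in replicate 1 was then further below the unbound one. The coefficient was -0.20 (standard error 0.14, edgeR adjusted p = 0.31), and the scores were -0.13 and -0.28 (-0.21 ± 0.10, SD, n = 2). In this screen 36.7% of the 79 domains were called lower and 1.27% higher. Under library totals the coefficient was 0.30 and under scaling over all members 0.36, both called higher, with the controls' medians at 0.45 and 0.52. Of the 21 controls 19 lay above the tile under each of these scalings. Position changed the score by 0.16 (95% interval -0.27 to 0.58; limma adjusted p = 0.81), in a screen where 1.28% of domains were called for position.

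The change from repression to memory was itself tested. Memory minus repression was 1.18 (standard error 0.20, edgeR adjusted p = 6.7e-06), and the same direction was called for 60.8% of the 79 domains, with 1.27% in the opposite one. Among the 23 silencer tiles the tile ranked at 15 for this difference. It was 1.09 to 1.29 when a replicate of either screen was left out. Under library totals and under scaling over all members the coefficients differed by -0.17 and -0.24, and neither passed the test. The zero of the 2 screens moves by unequal amounts there.

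Few pairs of the tile passed the test in memory, although 133 of 195 had scores below 0 in both replicates, with a median of -0.46 over all. edgeR called 15 of 195 lower, a share near the 7.03% of all 9337 pairs, and 0 higher, against 0.257%. At an unadjusted p of 0.05 the counts were 58 and 2, and with DESeq2 35 and 1. None of the 42 pairs with controls was among the 15. Both orders with all 3 KRAB variants were, and the pairs with P21506 were the lowest, at -2.57 (standard error 0.33) with the tile second and -2.53 (0.34) with the tile first. For tile + P21506 there were 1479 bound and 16246 unbound reads in replicate 1, and 1986 and 6110 in replicate 2. The variants stood at a median of -1.79 with controls and -1.92 with the tile.

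CBX1 and tile 18 of ENSG00000100307 were also called in both orders, with mean scores between -1.78 and -1.73. The other calls, each with the tile first, were those with MYBA (mean score -1.13), U2AF4 (-1.01), tile 62 of ENSG00000102098 (-1.97), tile 11 of ENSG00000163602 (-1.10) and another silencer tile (-1.06). Without replicate 1 of the memory screen none of the 15 was called, and without replicate 2 the count was 11, of which 8 were among the 15. Under library totals and under scaling over all members 7 were called each time. SUMO3, MPP8 and HERC2, which had some of the lowest repression scores, stood at -1.11, -0.92 and -0.89 in memory, and no pair of theirs with the tile was called.

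Scores in memory agreed less well between replicates. Across 74 partners the correlation was r = 0.31, against 0.88 in repression, and the orders correlated with r = 0.47. Homeobox protein HXA13 was low at -2.32, but its orders were -3.55 and -1.10 and a library held 15 reads. SSX2 was the highest partner at 1.06, with 1.52 and 0.60 in the replicates and as few as 18 reads. Tile 13 of ENSG00000205571 (0.51), the PHD finger of CXXC1 (0.50), CHD3 (0.22) and TERF1, a telomere-binding protein (0.17), came next. KIBRA differed by order in both replicates, with 0.88 for tile first and -1.42 for tile second, and neither pair was called. DPF1 (0.24 and -2.13), tile 13 of ENSG00000025156 (-0.96 and 0.87) and KMT2B (-1.70 and -0.16) also differed by order, tile first given first. The difference for DPF1 was 3.99 in replicate 1 and 0.75 in replicate 2.

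The tile paired with itself was one of its most abundant members, with 463890 bound and 51064 unbound reads in replicate 1 of activation and 762158 and 1211 in replicate 2. Its activation scores were 3.66 and 4.59 (4.12 ± 0.66, SD, n = 2), against 3.86 and 3.59 for its median over controls in the first and the second position. In repression the scores were -2.65 and -2.63, and the pair was called lower (log2 -2.64, standard error 0.78, edgeR adjusted p = 0.013). Pairs of a control with itself also leaned more to the unbound fraction there than pairs of 2 different controls. Including them took control-pair reads in replicate 1 from 1808957 to 3429061 bound and from 146203 to 460920 unbound. In replicate 2 the reads went from 943763 to 1838141 bound and from 324879 to 759464 unbound. In memory the replicates of the tile's pair with itself disagreed, with 3.75 and -0.41, and it was not called. The unbound memory library of replicate 1 held 7741 reads of it, while the bound one held 66880. Including pairs of a control with itself took control-pair reads there from 957726 to 1749396 bound and from 1510554 to 1634740 unbound. In replicate 2 both fractions rose by a similar proportion, from 808095 to 1324585 bound and from 565852 to 924161 unbound. The high bound share in replicate 1 was thus not particular to the tile.

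Partners that were low in repression tended to be low with the tile in activation. Over 73 partners, the partner's score with controls in repression and the partner's score with the tile in activation correlated with r = 0.87 (Spearman 0.82). The partner's own activation score did so less closely by r (r = 0.58), but nearly as closely by rank (Spearman 0.81). Within repression the partner's score with controls and with the tile correlated with r = 0.83, with a slope of 0.62. Activation and repression scores of the tile's pairs correlated with r = 0.72 over 71 partners. These are descriptions over points that share the tile and the libraries.

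Of the 98 other domains with all 12 control-partnered mean scores (3 screens, 2 positions, 2 replicates), ZN473 was nearest to the tile, with a root mean square difference of 0.26. NCOA2 (0.32), FOXO3 (0.39), MYBA (0.52) and the control DMD tile 31 (0.97) followed. ZN473 stood at 3.31 in activation, -1.16 in repression and -0.16 in memory, against 3.51, -1.38 and -0.20 for the tile. Their profiles over 72 shared partners correlated with r = 0.97 in activation, 0.92 in repression and 0.78 in memory. No silencer tile was among the 5 nearest. The 12 scores include activation, where the tile was chosen for standing apart from those tiles, so their absence was set by that choice. In activation the next silencer tile, tile 13 of ENSG00000205571, stood at 0.50.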

How the data were processed

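The authors deposited raw counts of read pairs for each ordered pair of domains. Per the labels, both domains were aligned separately with Bowtie2, its version not stated, with 30 bases trimmed from each end. The submitters' filter was applied here and the floor of 5 reads used for scores. edgeR 4.0.16 (R 4.3.3) fitted all 12 libraries together: every replicate of a screen was a block, and each screen had 1 coefficient for bound over unbound (residual degrees of freedom: 3). TMM over the pairs of 2 controls set the scaling. Sums over control partners were fitted for 79 domains. limma 3.58.1 tested scores, and DESeq2 1.42.0 was an alternative. Calls had a Benjamini-Hochberg adjusted p of at most 0.05 over the whole table. The fits were tested on simulated data. Python 3.11.15 and pandas 2.3.3 prepared the tables.

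Bound and unbound libraries share the number of a replicate, and replicates were infected separately per the labels, which is the pairing behind the block. The labels name 20 controls and the files hold 21, all of which were used. Same-numbered libraries deviated together with r = 0.07, 0.15 and -0.06 in activation, repression and memory. Nothing says that the cultures of repression and memory were separate.

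Members and partner lists were chosen with earlier results of these data known. Named were, per screen, the 5 highest and lowest partners, the 5 with the largest order difference, the largest called changes, the 5 nearest domains and examples of the lists, with domains written as in the files. Control partners and raw reads were chosen for display after their values were seen, and some silencer tiles and KRAB variants are given without their identifier. Alternatives changed the scaling, tool, filter, floor, controls, position, expectation, block and replicates.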

Additional observations from a re-analysis of the deposited data

Results flagged for a closer look

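The effect of the tile next to controls differed between the screen with doxycycline and the screen after its removal, by 1.18 on the log2 scale in edgeR's test of the difference. The same tile stood above control pairs in both replicates of the activation screen (mean score 3.41) and below them in both replicates of the repression screen (mean score -1.37). The difference between those reporter lines was not tested, and the times of doxycycline differ.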

How the results depend on the processing

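Of 125 alternatives to 13 results, 95 were labelled the same. Tested results had to keep the direction and the side of the threshold, and counts to stay within 1.5 times. The activation result, which had no test, had to stay within the SD between its replicates (0.06), and 8 alternatives moved further without a change of sign. Among the rest, 6 reversed, 12 were weaker and 4 stronger. Without the replicate block, 167 pairs were called lower in repression and 18 in memory, in place of 164 and 15, and the block changed no other call next to controls. Signs turned under total counts and TMM over all members, as these move the zero: next to controls 0.47 and 0.60 in repression, 0.30 and 0.36 in memory, and -0.17 and -0.24 for memory minus repression. Those scalings called 57 and 54 pairs lower in repression, and 7 and 7 lower and 0 and 1 higher in memory. DESeq2 called 35 lower and 1 higher in memory. In activation the effect was 2.44 under total counts, 3.60 under TMM over all members, 3.63 without DMD tile 31, 3.60 and 3.28 in the first and second position, 3.41 with limma, and 3.41 to 3.59 without a replicate. Leaving out a replicate gave 0 to 11 pairs lower and 0 to 1 higher in memory, 19 to 34 partners lower and 0 to 1 higher with the tile in repression, 2 to 24 pairs above the sum and 1 to 1 below it. The stronger effect as the expectation left 2 pairs above it. The cause of these shifts beyond fewer samples or another zero was not tested. Leaving pairs of a control with itself out of the scaling was added after the data were seen and gave 13 lower pairs in memory. Depth limited most the activation unbound library of replicate 2, where the median member of the whole library had 28 reads.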
